A study of Bos taurus with 61 samples.

Results

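The genes of cytochrome P450 (CYP) and phase II enzymes were followed across 8 tissues of Brangus heifers after puberty (POST) and before it (PRE). They were taken by name: all gene symbols of the CYP, UDP-glucuronosyltransferase (UGT), glutathione S-transferase (GST and MGST), sulfotransferase (SULT) and flavin-containing monooxygenase (FMO) families, without the steroidogenic genes CYP11A1, CYP17A1 and CYP19A1 and the retinoic acid hydroxylases of the CYP26 family. The rule found 28 of the 24616 genes measured, and it used no measured value.

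P450 enzymes are heme proteins of the endoplasmic reticulum or the mitochondrion that insert an oxygen atom into steroids, fatty acids, vitamins, drugs and plant compounds. FMO enzymes oxidise nitrogen and sulfur atoms of foreign and dietary compounds. Phase II enzymes then join the product, or an unmodified compound, to glutathione (GST, MGST), glucuronic acid (UGT) or sulfate (SULT), which makes it easier to excrete and, for steroid hormones, ends or lowers their activity. The liver is the main site of these reactions in mammals, and steroids made by the ovary are cleared there.

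Brangus is a composite of Brahman and Angus cattle, and puberty was judged by progesterone in blood. The 4 POST heifers were slaughtered in the luteal phase with a corpus luteum, and were older and heavier than the 4 PRE heifers, which had no corpus luteum, so stage, age, weight and phase of the cycle cannot be told apart. Liver, adipose tissue, endometrium, uterine horn, ovary, pituitary gland, hypothalamus and longissimus dorsi muscle gave 31 POST and 30 PRE libraries, with 4 in a group by the labels except 3 in POST endometrium, PRE endometrium and PRE pituitary gland. POST ovary samples held corpus luteum beside antral follicles, and PRE ovary samples held antral follicles only.

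The values are RPKM, a unit that corrects a read count for transcript length and library total, and each is the authors' mean for 1 group. No value per animal was used here, so no SD, replicate check or p-value stands beside them, and a difference given below is a difference between 2 means whose spread is unknown. Group sums of mean unique reads ran between 17109554 in PRE endometrium and 27132722 in PRE adipose tissue. Mean reads came in steps of 1/3 in both hypothalamus groups, although 4 libraries are labelled in each, and in steps of 1/4 in PRE pituitary gland, where the labels give 3. Genes were compared in the tissues where either stage had a mean of 0.2 RPKM or more, and a gene was called when the means lay at least 4-fold apart after 0.2 RPKM was added to each. The log2 difference is POST minus PRE on that scale, which understates the change of genes with a low level. Markers of other tissues stood out in some groups: genes of pituitary hormone cells were at 29708 RPKM in POST and 151 RPKM in PRE ovary by their sum over 4 genes, and liver markers were high in POST adipose tissue, as given beside the results of those tissues. With group means only, no value could be computed with a library left out. In bulk tissue, fewer cells of a type and less RNA per cell cannot be told apart.

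The liver was the most frequent site of highest expression. A fold between tissues is given here and below with 0.2 RPKM added to both tissue means. Of the 21 genes that reached 1 RPKM as a mean of both stages in some tissue, 12 (57.1%) were highest in liver and 9 (42.9%) were at least 4-fold above every other tissue there. Over all 15593 genes at this level, 9.75% were highest in liver and 3.51% were 4-fold above every other tissue there. The highest tissue of all 28 genes was the liver for 12, hypothalamus for 5, pituitary gland for 4, ovary for 3, endometrium for 2, and uterus and adipose tissue for 1 each. All 12 liver genes reached 1 RPKM there. Some of the others had their highest tissue mean near 0, such as UGT2A1 (0.0075 RPKM in pituitary gland) and CYP4F22 (0.157 RPKM in ovary). Muscle was the highest tissue of none.

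**Figure D1:**
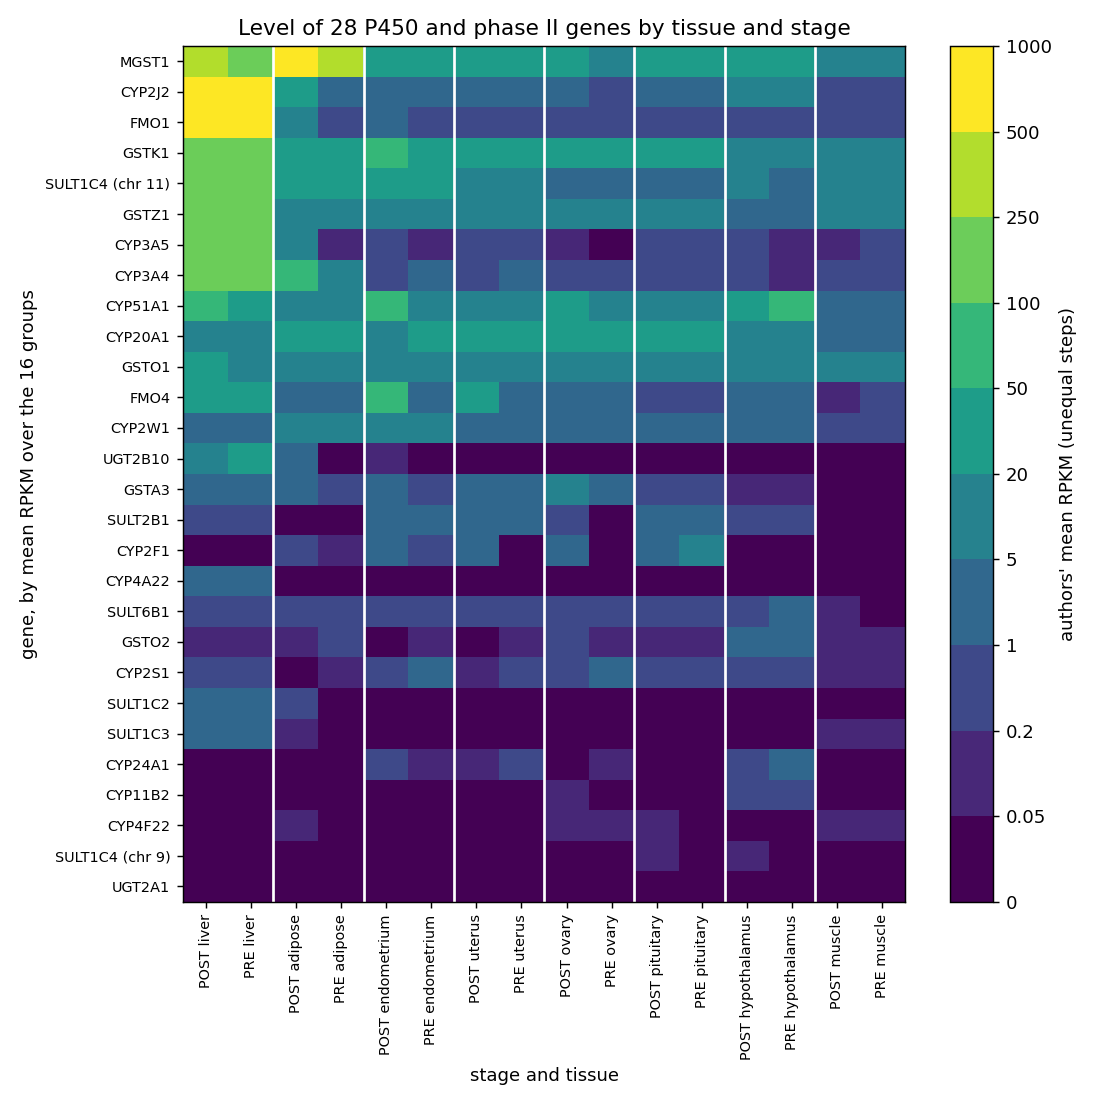
Authors' mean RPKM (color, in unequal steps) of the 28 genes (rows, by mean over the 16 groups) in POST and PRE groups of each tissue (columns). The liver columns hold the highest levels for 12 genes, among them CYP2J2 with 686 RPKM in POST and 932 RPKM in PRE liver, and MGST1 is highest in adipose tissue, with 650 RPKM in POST and 358 RPKM in PRE heifers.

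Among the P450 genes that the naming rule took, CYP2J2 was the most abundant in liver. This gene (chromosome 3, 86490283 to 86519705 on UMD3.1) encodes an enzyme that epoxidises arachidonic acid in humans. Its mean was 686 RPKM in POST and 932 RPKM in PRE liver, a log2 difference of -0.44. Averaged over both stages, liver had 809 RPKM and adipose tissue, the next tissue, had 16.7 RPKM.

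The genes named CYP3A5 and CYP3A4 lie on chromosome 25 at 37025335 to 37044626 and 37125929 to 37175162. CYP3A enzymes oxidise many drugs and also testosterone and other steroids in the mammalian liver. CYP3A5 had 213 RPKM in POST and 248 RPKM in PRE liver, and CYP3A4 had 135 RPKM in POST and 154 RPKM in PRE liver. These names are the files' own, and RefSeq lists 4 protein-coding CYP3A genes in the ARS-UCD2.0 assembly of cattle, so which near-identical copy gave the reads is uncertain. CYP3A5 was 83.1-fold higher in liver than in adipose tissue, its next tissue, whereas CYP3A4 was 2.70-fold higher. CYP4A22, which belongs to a family of fatty acid hydroxylases, was lower, with 4.96 RPKM in POST and 4.67 RPKM in PRE liver, and reached 0.2 RPKM in no other tissue.

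FMO1 (chromosome 16, 39666877 to 39706037) had 548 RPKM in POST and 542 RPKM in PRE liver and was 73.5-fold above adipose tissue, its next tissue. FMO4 begins 16552 bp beyond it, with no gene model between them, and had another distribution. FMO4 had 30.2 RPKM in POST and 34.0 RPKM in PRE liver, and its highest tissue mean was in endometrium, at 42.1 RPKM. The physiological substrates of FMO4 are little known, whereas FMO1 oxidises amine drugs.

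Among the 28 genes, the conjugating enzymes of the liver were led by MGST1 and SULT1C4. MGST1, a membrane-bound enzyme that conjugates glutathione and reduces lipid peroxides, had 260 RPKM in POST and 241 RPKM in PRE liver. SULT1C4 on chromosome 11, a sulfotransferase of small phenols in humans, had 209 RPKM in POST and 199 RPKM in PRE liver. GSTZ1, which isomerises maleylacetoacetate in the breakdown of tyrosine, had 209 RPKM in POST and 182 RPKM in PRE liver.

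GSTK1, a glutathione transferase of mitochondria and peroxisomes, had 114 RPKM in liver of each stage and between 9.07 and 64.5 RPKM in the other tissues. UGT2B10, whose family conjugates glucuronic acid to steroids and bile acids, had 9.52 RPKM in POST and 31.4 RPKM in PRE liver. Its reads and RPKM did not keep 1 ratio across groups. The ratio varied by over 2-fold for 9 of the genes, among them also CYP3A4, GSTO2, CYP3A5, CYP2J2 and FMO4. SULT1C2 had 2.15 RPKM in POST and 3.19 RPKM in PRE liver. SULT1C3, a gene named after its values were seen, had 2.08 RPKM in POST and 2.57 RPKM in PRE liver. The 3 SULT1C genes stand side by side on chromosome 11 between 44724159 and 44785035, and all were at least 4-fold above every other tissue in liver.

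The liver itself differed little between stages. Its 13 measured markers summed to 70077 RPKM in POST and 62759 RPKM in PRE liver. Of the 21 genes compared, 20 had means less than 2-fold apart, beside 99.2% of all genes compared in liver. None was called higher or lower, against a background of 0.0221% called higher and 0.059% called lower among the 13550 genes compared in liver. The median log2 difference was 0.005, beside -0.04 over all genes. UGT2B10 was the exception among the 21, with a log2 difference of -1.70 (9.52 RPKM in POST and 31.4 RPKM in PRE liver). The share of all RPKM that the 28 genes took was 0.560% in POST and 0.627% in PRE liver.

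Of a list of 60 partner genes (electron donors, cofactor enzymes, other conjugating and oxidising enzymes and transporters), 33 were measured and 32 were compared in liver, and none was called in either direction. POR, the reductase that passes electrons to P450 enzymes of the endoplasmic reticulum, had 105 RPKM in POST and 110 RPKM in PRE liver. CYB5A, a cytochrome that can pass electrons to some P450 enzymes, had 763 RPKM in POST and 712 RPKM in PRE liver. UGDH, which makes the glucuronic acid donor, had 118 RPKM in POST and 120 RPKM in PRE liver. NR0B2, a nuclear receptor that represses bile acid synthesis, lay further apart, with 10.4 RPKM in POST and 3.80 RPKM in PRE liver (log2 difference 1.41), and was not called.

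**Figure D2:**
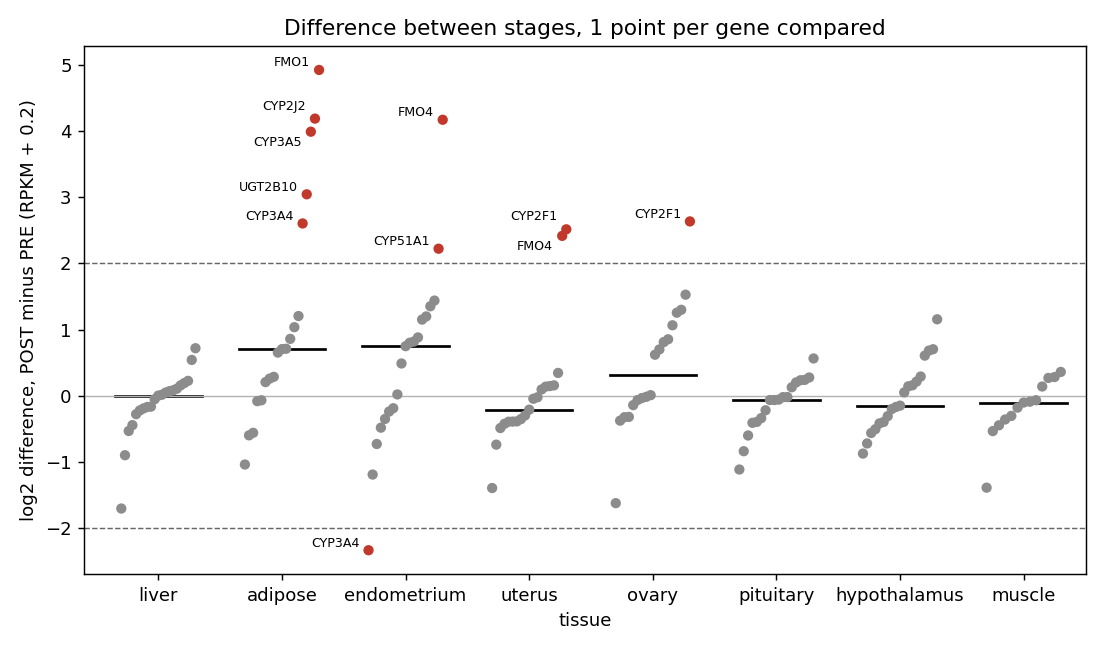
Log2 difference (POST minus PRE, 0.2 added to mean RPKM) of each gene compared, by tissue, with 1 point a gene, the median as a bar and dashed lines at 4-fold. The 11 called differences are in red with their names, 5 of them higher in POST adipose tissue, and no point of the liver passes either line.

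Across all tissues, 146 of the 224 pairs of gene and tissue could be compared, and 11 were called, of which 10 were higher in POST and 1 was lower. They belonged to 8 genes, and the other 20 genes had no call. Calls fell in adipose tissue, endometrium, uterus and ovary.

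In adipose tissue, the genes called were mostly those of the liver. Of 19 genes compared, 5 were called higher in POST heifers (26.3%, against a background of 1.95% of 14648 genes) and none lower (background 0.137%). Of the 9 genes that were 4-fold above every other tissue in liver, 7 were compared and 4 were called, whereas 1 of the 12 other genes compared was called. The called genes were FMO1, CYP2J2, CYP3A5, UGT2B10 and CYP3A4.

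FMO1 had 14.2 RPKM (814 mean unique reads) in POST and 0.274 RPKM (26.3 reads) in PRE adipose tissue, a log2 difference of 4.92. CYP2J2 had 31.9 RPKM (1491 reads) in POST and 1.56 RPKM (144 reads) in PRE adipose tissue, a difference of 4.19. CYP3A5 had 5.02 RPKM (186 reads) in POST and 0.129 RPKM (18.5 reads) in PRE adipose tissue, a difference of 3.99. These 3 genes were at least 15.9-fold apart on the scale with 0.2 added.

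UGT2B10 had 1.498 RPKM (104 reads) in POST and 0.006 RPKM (7 reads) in PRE adipose tissue, a log2 difference of 3.04 that fell to 1.31, below the 4-fold limit, when 1 RPKM was added in place of 0.2. CYP3A4 differed from the others in that it was also abundant before puberty. It had 92.2 RPKM (4579 reads) in POST and 15.0 RPKM (956 reads) in PRE adipose tissue, a difference of 2.60.

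Markers of hepatocytes moved with these genes. Of 20 liver markers listed, 13 were measured, and 11 of the 13 were called higher in POST adipose tissue, with a median log2 difference of 5.79 and a summed level of 3832 RPKM in POST and 1687 RPKM in PRE heifers. ALB, the gene of serum albumin, had 1098 RPKM in POST and 17.2 RPKM in PRE adipose tissue. RBP4, which was not called, made up most of the PRE sum, with 1698 RPKM in POST and 1635 RPKM in PRE adipose tissue. None of the 13 markers was at 0 in either stage. The part of liver RNA in the differences of the enzyme genes was not tested.

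Expressed as a share of the liver level of the same stage, the markers lay between 2.83% and 42.7% in POST adipose tissue, with a median of 3.61%, and between 0.0282% and 41.7% in PRE adipose tissue, with a median of 0.0484%. The highest marker at both stages was RBP4. FMO1 was at 2.58% in POST and 0.0506% in PRE heifers, and CYP3A5 at 2.36% in POST and 0.0521% in PRE heifers. CYP2J2 was at 4.64% in POST and 0.167% in PRE heifers. UGT2B10 was at 15.7% in POST and 0.0191% in PRE heifers. CYP3A4 stood at 68.1% in POST and 9.72% in PRE heifers, above 12 of the 13 markers in PRE and above all 13 in POST adipose tissue.

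The gain of a gene in adipose tissue, POST minus PRE RPKM, was also set against its POST liver level. It was 1.57% to 6.50% for the 13 markers (median 3.22%), and the median of the 9 liver genes was 3.18%, with a range of -10.5% to 15.7%. For CYP3A4 the gain was 57.0%.

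**Figure D3:**
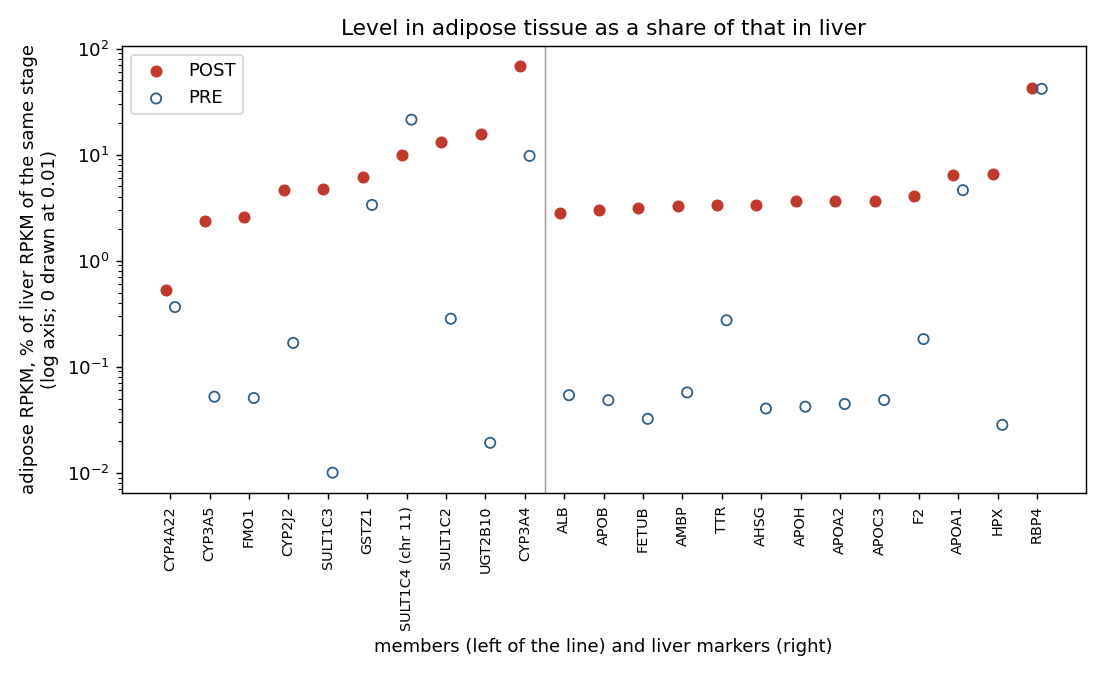
Level in adipose tissue as a percent of that in liver of the same stage (log axis, a value of 0 drawn at 0.01) for 10 enzyme genes and 13 liver markers in POST (filled) and PRE (open) heifers. CYP3A4 lies at 68.1% in POST and 9.72% in PRE heifers, and the median marker at 3.61% in POST and 0.0484% in PRE heifers.

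Defining genes of adipocytes were present at both stages. None of the 5 adipocyte markers measured, of 9 listed, was called, and their sum was 7519 RPKM in POST and 6038 RPKM in PRE adipose tissue. Kidney markers summed to 0.160 RPKM in POST and 0.121 RPKM in PRE, and adrenal markers to 4.03 RPKM in POST and 2.74 RPKM in PRE adipose tissue.

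Conjugating enzymes other than UGT2B10 were not called in adipose tissue. MGST1 (chromosome 5, 93926791 to 93950162) had its highest level of any tissue there, with 650 RPKM in POST and 358 RPKM in PRE heifers, a log2 difference of 0.86. SULT1C4 of chromosome 11 was lower in POST, with 20.6 RPKM in POST and 42.4 RPKM in PRE, a difference of -1.04. GSTZ1 had 12.8 RPKM in POST and 6.11 RPKM in PRE, a difference of 1.04. SULT1C4 of chromosome 11 and GSTZ1 were both among the 9 genes at least 4-fold above every other tissue in liver. GSTK1, with 38.8 RPKM in POST and 31.7 RPKM in PRE, and GSTO1, with 16.6 RPKM in POST and 17.5 RPKM in PRE, were less than 2-fold apart.

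Of the 31 partner genes compared in adipose tissue, 4 were called higher in POST (background 1.95%) and none lower (background 0.137%). Transporters of the hepatocyte membrane were among the 4. SLCO1B3, an importer of organic anions, had 15.0 RPKM in POST and 0.234 RPKM in PRE. The bile salt exporter ABCB11 had 1.15 RPKM in POST and 0.031 RPKM in PRE, and the conjugate exporter ABCC2 had 1.46 RPKM in POST and 0.099 RPKM in PRE. POR, with 19.1 RPKM in POST and 17.99 RPKM in PRE adipose tissue, was not called.

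The endometrium held the calls of 3 genes. Of 19 genes compared, FMO4 and CYP51A1 were called higher in POST heifers (10.5%, against a background of 3.23% of 15620 genes) and CYP3A4 was called lower (5.26%, background 3.31%). The median log2 difference was 0.75, beside -0.03 over all genes. By the means 6 of the 19 were at least 2-fold higher, 2 at least 2-fold lower and 11 less than 2-fold apart. Of all 15620 genes compared, 76.1% were less than 2-fold apart. The share of RPKM of the 28 genes was 0.102% in POST and 0.0455% in PRE endometrium.

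FMO4 (chromosome 16, 39722590 to 39759444) had 79.9 RPKM (11438 reads) in POST and 4.25 RPKM (542 reads) in PRE endometrium, a log2 difference of 4.17. The POST mean was higher than its liver level of either stage. In the uterine horn the gene had 22.4 RPKM (4317 reads) in POST and 4.03 RPKM (602 reads) in PRE heifers, a difference of 2.42. In ovary it did not differ to this extent, with 1.58 RPKM in POST and 1.60 RPKM in PRE heifers.

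CYP51A1 (chromosome 4, 9306414 to 9323252) encodes lanosterol demethylase, the P450 of cholesterol synthesis. It had 57.7 RPKM (4303 reads) in POST and 12.2 RPKM (887 reads) in PRE endometrium, a log2 difference of 2.22. In ovary it had 37.0 RPKM in POST and 14.9 RPKM in PRE, a difference of 1.30 that was not called, and in uterus 17.2 RPKM in POST and 19.9 RPKM in PRE. Averaged over both stages, hypothalamus (48.5 RPKM) and liver (48.1 RPKM) had its highest levels, with 41.9 RPKM in POST and 55.1 RPKM in PRE hypothalamus and 51.9 RPKM in POST and 44.3 RPKM in PRE liver. Of the 16 groups, POST endometrium was the highest.

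CYP3A4 had 0.793 RPKM (88.7 reads) in POST and 4.79 RPKM (295 reads) in PRE endometrium, a log2 difference of -2.33, the only call of a lower level among the 28 genes. The call was lost with 1 RPKM added (-1.69) and with reads scaled to the group total in place of RPKM (-1.96). In uterus this gene had 0.969 RPKM in POST and 1.36 RPKM in PRE.

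Genes of other cell types also moved in endometrium. The 3 smooth muscle genes measured, of 4 listed, were all called lower in POST, with a sum of 139 RPKM in POST and 1847 RPKM in PRE endometrium. The 2 epithelial genes measured, of 5 listed, had a sum of 256 RPKM in POST and 106 RPKM in PRE endometrium and were not called. EPCAM had 222 RPKM in POST and 71.6 RPKM in PRE, whereas KRT19 had 34.5 RPKM in POST and 34.3 RPKM in PRE. Immune genes summed to 7.28 RPKM in POST and 18.05 RPKM in PRE. Of the 5 adipocyte genes measured 1 was called higher, and their sum was 156 RPKM in POST and 33.4 RPKM in PRE endometrium. The gene called was DGAT2, with 99.1 RPKM in POST and 4.155 RPKM in PRE, and LPL and PNPLA2 were also higher by the POST mean. ADIPOQ, with 4.69 RPKM in POST and 5.56 RPKM in PRE, and CIDEC, with 2.55 RPKM in POST and 2.65 RPKM in PRE, were not higher. In uterus smooth muscle genes summed to 3177 RPKM in POST and 2469 RPKM in PRE heifers, and none was called. The part of tissue makeup in the endometrial differences was not tested.

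Other conjugating and P450 genes of endometrium were higher in POST by less than 4-fold. MGST1 had 49.6 RPKM in POST and 21.5 RPKM in PRE (log2 difference 1.20). CYP2W1, an enzyme with little expression in most adult human tissues, had 15.5 RPKM in POST and 6.86 RPKM in PRE (1.15), and endometrium was its highest tissue. GSTA3, which in humans also isomerises intermediates of steroid synthesis, had 2.82 RPKM in POST and 0.983 RPKM in PRE (1.35). SULT1C4 of chromosome 11 had 41.4 RPKM in POST and 23.3 RPKM in PRE (0.82).

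Of the 28 partner genes compared in endometrium, 2 were called higher in POST (background 3.23%) and 1 lower (background 3.31%). GCLC, the catalytic subunit of the first enzyme of glutathione synthesis, had 95.6 RPKM in POST and 10.9 RPKM in PRE. EPHX2, which hydrolyses fatty acid epoxides, had 169 RPKM in POST and 24.5 RPKM in PRE. AOX1, an aldehyde oxidase, had 20.3 RPKM in POST and 158 RPKM in PRE.

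In uterus, 2 of the 19 genes compared were called higher in POST heifers (10.5%, against a background of 1.34% of 15389 genes) and none lower (background 1.61%). The genes were FMO4, given above, and CYP2F1, which activates naphthalene in the lung of rodents. CYP2F1 (chromosome 18, 50345655 to 50352744) had 1.22 RPKM (61.5 reads) in POST and 0.049 RPKM (4.25 reads) in PRE uterus, a log2 difference of 2.51. The 4 genes of pituitary hormone cells summed to 149 RPKM in POST and 108 RPKM in PRE uterus, and none was called. The median over the 19 genes was -0.21, beside -0.04 over all genes.

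In ovary, 1 of the 18 genes compared was called higher in POST heifers (5.56%, against a background of 1.38% of 15540 genes) and none lower (background 0.56%). It was CYP2F1 again, with 1.15 RPKM (98.3 reads) in POST and 0.018 RPKM (0.75 reads) in PRE ovary, a log2 difference of 2.63. With 1 RPKM added, the call of this gene was lost in ovary (1.08) and in uterus (1.08). In endometrium it had 1.08 RPKM in POST and 0.534 RPKM in PRE and was not called. Its highest level was in the pituitary gland, with 4.84 RPKM in POST and 5.04 RPKM in PRE, which was 5.11-fold above endometrium, the next tissue, with 0.2 RPKM added to both. All 4 genes of pituitary hormone cells, such as the prolactin gene PRL, were called higher in POST ovary, with a median log2 difference of 7.89 and a sum of 29708 RPKM in POST and 151 RPKM in PRE ovary. Their sum in the pituitary gland was 228284 RPKM in POST and 163701 RPKM in PRE heifers. The part of pituitary RNA in the CYP2F1 difference in ovary was not tested.

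GSTA3 and CYP2S1 moved in opposite directions in ovary by 2-fold to 4-fold. GSTA3 had its highest tissue level there, with 6.72 RPKM in POST and 2.20 RPKM in PRE (log2 difference 1.53). CYP2S1, an enzyme of epithelia in humans, had 0.294 RPKM in POST and 1.32 RPKM in PRE ovary (-1.62). CYP2S1 was also lower by the POST mean in endometrium, with 0.409 RPKM in POST and 1.19 RPKM in PRE (-1.19), and in uterus, with 0.187 RPKM in POST and 0.815 RPKM in PRE (-1.39). FOXJ1, a transcription factor of ciliated cells, was called lower in ovary, with 0.225 RPKM in POST and 9.64 RPKM in PRE, and in uterus, with 4.33 RPKM in POST and 27.8 RPKM in PRE. In endometrium FOXJ1 had 18.7 RPKM in POST and 28.4 RPKM in PRE and was not called. TTR, the other gene measured of its list (choroid plexus and ependymal), had 6.67 RPKM in POST and 4.16 RPKM in PRE ovary. In uterus TTR had 3.34 RPKM in POST and 10.2 RPKM in PRE, and in endometrium 8.25 RPKM in POST and 6.32 RPKM in PRE. Of the epithelial genes, EPCAM was higher and KRT19 lower by the POST mean in ovary and in uterus. The relation of these genes to the CYP2S1 differences was not tested.

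Also in ovary, MGST1 had 23.8 RPKM in POST and 11.3 RPKM in PRE (log2 difference 1.07). SULT2B1, which sulfates cholesterol and other hydroxysteroids, had 0.323 RPKM in POST and 0.019 RPKM in PRE (1.26). Luteal and steroidogenic genes moved in the same tissue: of 5 measured, 3 were called higher in POST, and their sum was 2260 RPKM in POST and 659 RPKM in PRE ovary. Among the 29 partner genes compared in ovary, 1 was called higher in POST (background 1.38%) and none lower (background 0.56%). It was FDX1, the ferredoxin of mitochondrial P450 enzymes, with 186 RPKM in POST and 28.9 RPKM in PRE ovary. The part of the corpus luteum, and of the pituitary RNA given above, in the differences of the enzyme genes was not tested.

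**Figure D4:**
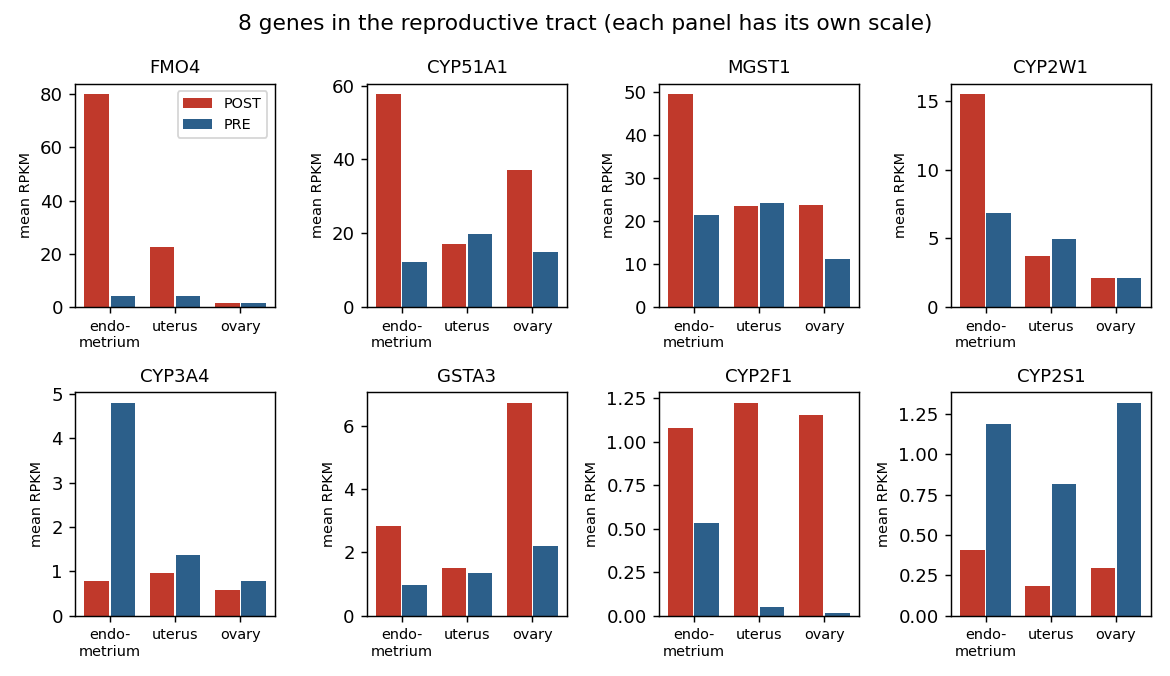
Authors' mean RPKM of 8 genes in endometrium, uterus and ovary of POST (red) and PRE (blue) heifers, each panel on its own scale from 0, without error bars because only group means were used. FMO4 stands at 79.9 RPKM in POST and 4.25 RPKM in PRE endometrium, and CYP2S1 has a lower POST mean in all 3 tissues.

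The pituitary gland, hypothalamus and muscle had no call. In the pituitary gland 18 genes were compared (background 0.104% called higher and 2.44% lower), and 17 had means less than 2-fold apart, beside 91.6% of all genes. The exception was GSTO1, a glutathione transferase that also reduces dehydroascorbate, with 6.83 RPKM in POST and 15.0 RPKM in PRE (log2 difference -1.11). In the same tissue 3 of the 5 endothelial genes measured were called lower, and the 5 summed to 28.3 RPKM in POST and 263 RPKM in PRE. Of the 13 liver markers 2 were called lower, and the 13 summed to 170 RPKM in POST and 1054 RPKM in PRE. The 2 were TTR (12.1 RPKM in POST, 805 RPKM in PRE), also listed for choroid plexus, and APOA1 (9.97 RPKM in POST, 94.1 RPKM in PRE). The other liver markers, such as ALB with 18.2 RPKM in POST and 27.0 RPKM in PRE, were not called. In hypothalamus 19 genes were compared (background 0.215% called higher and 0.202% lower). SULT1C4 of chromosome 11 was the 1 that lay over 2-fold apart, with 8.73 RPKM in POST and 3.81 RPKM in PRE (1.16). Of all genes compared in hypothalamus, 96.8% were less than 2-fold apart. Genes of pituitary hormone cells summed to 271 RPKM in POST and 49.5 RPKM in PRE hypothalamus, with 3 of 4 called higher. In muscle 13 genes were compared (background 0.496% called higher and 0.233% lower), and 96.5% of all genes compared were less than 2-fold apart. MGST1 was the 1 of the 13 over 2-fold apart, with 5.50 RPKM in POST and 14.7 RPKM in PRE (-1.39). Adipocyte genes moved the same way in muscle, with 2 of the 5 measured called lower and a sum of 87.8 RPKM in POST and 267 RPKM in PRE. Smooth muscle genes moved the other way there, with 2 of the 3 measured called higher and a sum of 3426 RPKM in POST and 2566 RPKM in PRE. The part of these other cell types in the differences of the enzyme genes was not tested.

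A few genes were set apart by tissues other than liver. GSTO2 (chromosome 26, 25103430 to 25119670) lies 5707 bp from GSTO1 but was most abundant in hypothalamus, with 3.30 RPKM in POST and 1.98 RPKM in PRE, 6.42-fold above ovary, the next tissue, with 0.2 RPKM added to both. GSTO1 ranged from 6.83 to 24.9 RPKM over the 16 groups, with its highest level in POST liver. CYP24A1, the vitamin D 24-hydroxylase, was highest in hypothalamus, with 0.812 RPKM in POST and 1.05 RPKM in PRE. The gene named CYP11B2, whose family makes the last steps of corticoid synthesis in the adrenal gland, had 0.411 RPKM in POST and 0.805 RPKM in PRE hypothalamus and stayed below 0.2 RPKM in every other tissue.

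CYP20A1, a P450 without a settled substrate, was the most even of the P450 genes above 5 RPKM. Its levels ran between 3.79 RPKM in PRE muscle and 30.4 RPKM in POST pituitary gland, and it was called in no tissue. SULT2B1 was highest in uterus, with 2.43 RPKM in POST and 2.47 RPKM in PRE, and SULT6B1, a sulfotransferase of little known function, was between 0.04 and 1.17 RPKM. In all, 10 genes reached 0.2 RPKM in all 16 groups and 25 in at least 1 group.

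The remaining 3 were below 0.2 RPKM everywhere. CYP4F22, which hydroxylates very long-chain fatty acids for the skin barrier in humans, had at most 0.166 RPKM, in PRE ovary. A second locus named SULT1C4, on chromosome 9 and named here after its values were seen, had at most 0.065 RPKM, and UGT2A1, a glucuronosyltransferase of the human olfactory epithelium, had at most 0.015 RPKM.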

How the data were processed

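RNA of 8 tissues was sequenced as 61 libraries, grouped by tissue and stage from the sample labels into 16 groups of 3 or 4. The authors used CLC Genomics Workbench to map single reads to UMD3.1 (version of the software not given in the sources used here), and 2 hypothalamus libraries had shorter reads than the rest. Deposited were the mean unique read number and the mean RPKM of each gene in each group, and depth is the group sum of mean reads. The labels' fat is called subcutaneous in the values' header and abdominal in the study's methods. Coordinates are the authors', on UMD3.1.

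A gene was compared at a mean of 0.2 RPKM or more in a stage, the study's own limit of expression, and called at 4-fold on log2(RPKM + 0.2). This size rule is no test. With group means only, the limma fit planned for single libraries was not run. The genes and lists were chosen with earlier results of these data known. Named are called genes with at least 1 RPKM in a stage, the 4 of highest mean RPKM of each family, and genes 4-fold above every other tissue outside liver, and others are marked as chosen after their values were seen. For CYP20A1 and CYP51A1, 2 UniProt entry names were paired with symbols by hand, as were entry names of list genes. Alternatives were 1 RPKM added, a minimum of 1 RPKM, centring on the median and reads scaled to the group total. Some genes of the lists are not reported here. The counting was tested on simulated data. Python 3.11.15, numpy 2.4.6, pandas 2.3.3 and matplotlib 3.10.9 were used.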

Additional observations from a re-analysis of the deposited data

How the results depend on the processing

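Of the 11 calls, 4 were lost with 1 RPKM added, 1 with reads scaled to the group total, and none with centring or with a minimum of 1 RPKM, and none reversed. With 1 RPKM added, the number of genes called higher became 0 in ovary and 1 in uterus, against 1 and 2 with 0.2 added, and the number called lower in endometrium became 0, against 1. With scaled reads the number called lower in endometrium was also 0. The 4 differences below the limit with 1 RPKM added were those of CYP2F1 in ovary (1.08) and uterus (1.08), UGT2B10 in adipose tissue (1.31) and CYP3A4 in endometrium (-1.69), and a larger constant shrinks low levels by construction. No paired analysis was possible because only group means were used, and for the same reason leaving out single replicates could not be run. The PRE means of CYP2F1, below 0.2 RPKM, rest on few reads, 4.25 in uterus and 0.75 in ovary.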

Other observations

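Relatives of these enzymes that the values list only by UniProt entry name were outside the naming rule and were looked at after their values were seen. Among 11 such genes, UGT3A1 had 1.39 RPKM in POST and 0.066 RPKM in PRE adipose tissue and was called higher. SULT1A1, which sulfates phenols and estrogens, had 14.7 RPKM in POST and 106 RPKM in PRE pituitary gland, the only call of a lower level among the 11. SULT1A1 was abundant in adipose tissue (456 RPKM in POST, 373 RPKM in PRE) and liver (369 RPKM in POST, 367 RPKM in PRE), and in endometrium it had 185 RPKM in POST and 54.5 RPKM in PRE. In the pituitary gland, endothelial markers summed to 28.3 RPKM in POST and 263 RPKM in PRE, and their part in the SULT1A1 difference was not tested.

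The unique reads and the RPKM of a gene did not keep 1 ratio across groups for some of these genes. The transcript length implied by reads scaled to the group total over RPKM, taken in groups with at least 20 reads, varied by a median of 1.60-fold over 26 of the genes, beside 1.39-fold over all 16506 genes with such groups, and by over 2-fold for 9 of the 26. For UGT2B10 it was 3.03 kb in POST liver and 249 kb in PRE ovary, for CYP3A4 2.08 kb in PRE liver and 18.1 kb in PRE hypothalamus, and for GSTO2 1.81 kb in POST hypothalamus and 15.5 kb in POST adipose tissue. It varied 2.73-fold for CYP3A5, 2.45-fold for CYP2J2 and 2.15-fold for FMO4. For CYP3A5 and CYP2J2 it was lowest in POST adipose tissue. With reads scaled to the group total, their log2 differences in adipose tissue were 3.28 and 3.61, against 3.99 and 4.19 by RPKM.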
